A study of Mus musculus with 25 samples.

Results

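The genes described here were 10 members of the BCL2 family of apoptosis regulators in mouse pituitaries and pituitary tumors: Bcl2, Bcl2l1, Mcl1, Bax, Bak1, Bcl2l11, Bbc3, Pmaip1, Bid and Bad. They were taken by gene symbol from a list of this pathway, with no threshold on a measured value, but the list was drawn up with earlier results of these data known. All 10 were found among the 15315 genes of the long-term table and 9 of 10 among the 14007 genes of the short-term table, in which Pmaip1 is not listed. Together the tables held 15768 genes.

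BCL2 family proteins set the threshold for the mitochondrial pathway of apoptosis. Pro-survival members (BCL2, BCL-XL from Bcl2l1, MCL1) hold the pore-forming effectors BAX and BAK in check, and BH3-only proteins (BIM from Bcl2l11, PUMA from Bbc3, NOXA from Pmaip1, BID and BAD) bind the pro-survival members or activate the effectors. When the effectors open the outer mitochondrial membrane, cytochrome c is released and joins APAF1 and caspase 9 in the apoptosome. Loss of the retinoblastoma protein RB frees E2F transcription factors, which are known to activate genes of this pathway as well as genes of the cell cycle. Protein stability and phosphorylation also regulate several of these proteins, MCL1, BAD and BID among them, which RNA levels do not show.

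All mice carried the shRb system: an rtTA transactivator at Rosa26 and a dox-inducible, GFP-linked hairpin against Rb1 at Col1a1, derived from a single embryonic stem cell clone. Dox was given to young adults in the drinking water, and every group had received it, so no group that never had knockdown was sequenced. In the long-term experiment, 3 mice had 6 weeks of dox (6w+dox, all female), 4 had 12 weeks (12w+dox, 2 female and 2 male) and 5 had 6 weeks of dox followed by 6 weeks without it (12w-res, 3 female and 2 male), which restores RB. In the short-term experiment, 3 mice had 16 weeks of dox (16w+dox, male), and others were taken 1 day (1d-dox, 4 female), 3 days (3d-dox, 3 male) or 5 days (5d-dox, 3 female) after dox removal. Sex and time off dox therefore cannot be told apart in the comparisons of 1d-dox and 5d-dox with 16w+dox. The 12w-res mice never had 12 weeks of dox, so rises and falls below are differences between separate mice, not a course over time. Whole pituitaries were sequenced in bulk, so fewer cells of a type and less RNA per cell cannot be told apart. The ages of single mice are not given in the sources used here.

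Libraries held 19066053 to 28968476 reads on genes in the long-term experiment and 9573101 to 13036900 in the short-term one. Levels are given as FPM, the deposited values scaled per library, which can be compared between groups of one experiment but not between the experiments. Rb1 was at 3.16 ± 1.70 FPM (SD, n = 3) in 6w+dox, 3.21 ± 0.700 (n = 4) in 12w+dox and 18.2 ± 1.66 (n = 5) in 12w-res. In the short-term experiment the GFP reporter fell from 1247 ± 192 FPM in 16w+dox to 122 ± 46.0 in 3d-dox and 11.7 ± 3.08 in 5d-dox, with adjusted p = 0.000334 and 3.77e-08 in the limma fit, while Rb1 was at 4.19 ± 0.709 FPM in 16w+dox and 5.12 ± 0.239 in 5d-dox. Markers of melanotrophs, the cells of the intermediate lobe, were present in every library, with Pomc taking 12.9% to 43.2% of long-term reads and 4.96% to 17.9% of short-term reads.

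The hairpin is shown because all 7 groups were made with it. Its target site lies in the coding part of exon 22 of 27 of the Rb1 transcript ENSMUST00000022701.6 at chr14:73206076-73206096 on the minus strand (mm10), and is given 5′ to 3′ in the sense of the mRNA.
shRb5 target in Rb1: gaggagtttgattccattata

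Promoter windows are shown for Bcl2l11, the member with the largest change below, and for Bcl2l1, the only member with a match to the searched E2F letters. They run from 250 bases before to 50 bases after a RefSeq start (GRCm38.p6, the build called mm10). Of the 10 members, 9 were searched in 15 windows. Capitals mark GTAAACA, the core letters bound by FOXO factors, in the Bcl2l11 window at chr2:128125788-128126087 (plus strand, from base 24), and GCGCGAAA, the reverse complement of the E2F letters TTTCGCGC, in the Bcl2l1 window at chr2:152830668-152830967 (minus strand, from base 106).
Bcl2l11: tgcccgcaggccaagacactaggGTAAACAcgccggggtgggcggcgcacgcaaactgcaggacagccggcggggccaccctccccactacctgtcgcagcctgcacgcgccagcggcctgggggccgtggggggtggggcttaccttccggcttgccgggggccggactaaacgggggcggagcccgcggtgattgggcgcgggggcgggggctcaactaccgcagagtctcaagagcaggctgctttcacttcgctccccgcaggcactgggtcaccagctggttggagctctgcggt
Bcl2l1: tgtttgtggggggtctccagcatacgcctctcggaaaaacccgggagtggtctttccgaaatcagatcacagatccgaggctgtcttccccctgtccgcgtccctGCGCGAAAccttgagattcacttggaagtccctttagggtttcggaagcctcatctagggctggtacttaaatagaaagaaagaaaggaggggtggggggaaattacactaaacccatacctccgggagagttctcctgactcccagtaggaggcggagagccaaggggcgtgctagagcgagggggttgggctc

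On either strand, GTAAACA was found in 3.65% of 32851 promoter windows and in windows of 2 members, Bcl2l11 and Bbc3. The E2F letters TTTCCCGC, TTTCGCGC, TTTGCCGC or TTTGGCGC were found in 2.26% of windows and in 1 member. The cAMP response letters TGACGTCA were found in 1.79% of windows and in none of the 15 member windows. A match is a description of these letters only.

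Per kilobase of the longest coding transcript, the same 3 members led in every long-term group, Bax, Bcl2l1 and Mcl1. In 6w+dox, Bax was at 67.2 ± 20.9 FPM per kb, Bcl2l1 at 41.2 ± 12.3 and Mcl1 at 37.2 ± 2.92, and each overlapped with its neighbour in the order. In 12w+dox, Bax was at 47.1 ± 11.7 FPM per kb and overlapped with Bcl2l1 at 42.4 ± 4.41, which lay above Mcl1 at 35.9 ± 1.79 in every mouse. In 12w-res, Bcl2l1 came first at 48.9 ± 3.59 FPM per kb and did not overlap with Mcl1 at 42.6 ± 2.97, while Mcl1 overlapped with Bax at 34.9 ± 6.16. Bad was 4th and Bcl2l11 5th in all 3 groups. Bcl2, the founding member of the family, was near the bottom of the order at 1.47 to 1.83 FPM per kb, and Pmaip1 was lowest in each group at 0.194 to 0.415.

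Between 6w+dox and 12w+dox, 1 of 10 members passed the limma test at an adjusted p under 0.05 (Bcl2l11, higher), against 22.4% of all 15315 genes tested in either direction and 10.4% higher. After 6 weeks of RB restoration, 3 of 10 members differed from 12w+dox (Bcl2l11 and Bid lower, Mcl1 higher), against 37.8% of all genes, of which 18.3% were lower and 19.4% higher. Against 6w+dox, 2 of 10 differed (Bax and Bad lower), beside 33.8% of all genes in either direction and 16.8% lower. With only 10 members, these shares are not read as a difference from those of all genes. The median log2 fold change over the members was -0.11, 0.08 and -0.09 in these comparisons, beside -0.01, -0.00 and -0.02 over all genes. A single member, Bcl2l11 in 12w-res against 12w+dox, also met the stricter call of an absolute log2 fold change over 1, which 11.3% of all genes met in that comparison and 7.2% and 11.6% in the comparisons of 12w+dox and of 12w-res with 6w+dox, where no member met it. These comparisons share groups, and each is given by its own values.

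**Figure D1:**
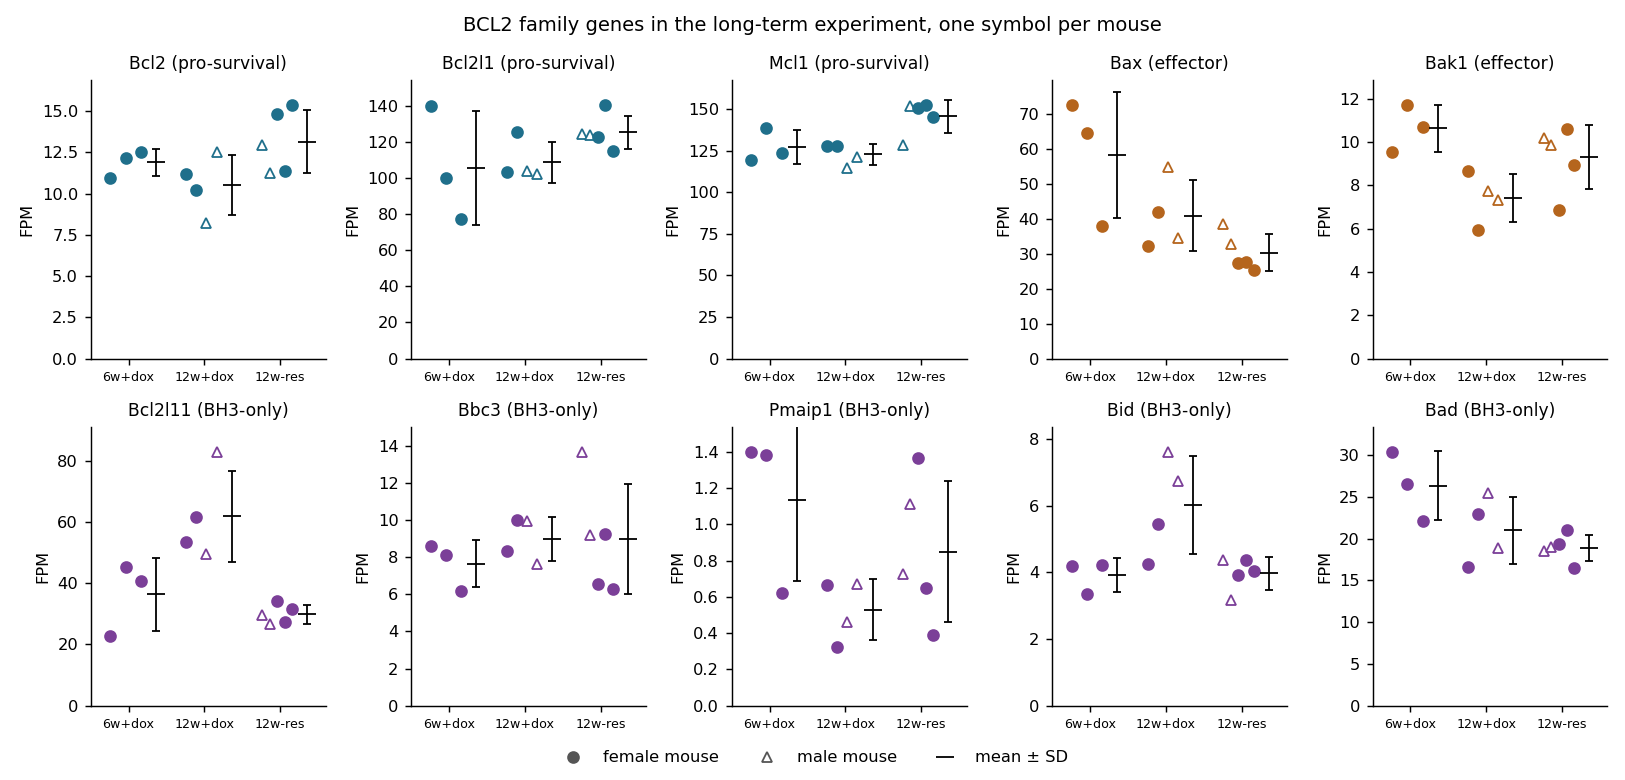
Level in FPM (vertical axis, from 0) of each of the 10 genes in every mouse of the 3 long-term groups (horizontal axis), with females as filled circles, males as open triangles and the mean ± SD beside them. Bcl2l11 in the 5 12w-res mice (26.6 to 34.0 FPM) lies below all 4 12w+dox mice (49.3 to 82.7 FPM).

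Among the pro-survival genes, Mcl1, which encodes a short-lived protein that many cells depend on, was at 119, 138 and 124 FPM in the 3 6w+dox mice and at 128, 128, 115 and 121 FPM in the 4 12w+dox mice. In the 5 12w-res mice it was at 128, 152, 151, 152 and 145 FPM. All 12w-res mice lay above all 12w+dox mice, by a margin of less than 1 FPM, and such a separation held for 2 members (Mcl1 and Bcl2l11) and for 34.5% of all genes in either direction. Mcl1 rose by 0.24 on the log2 scale between 12w+dox and 12w-res (SE 0.09, adjusted p = 0.0457 in limma), which is 1.18-fold. The call was lost in 8 of 9 fits that each left out 1 mouse, all but the one without 12w-res replicate 1 (adjusted p 0.0248 to 0.1005 over the 9). It was also lost with sex as a covariate (0.0586). Scaled to total reads, which moved the median of all genes as given below, Mcl1 passed as lower in 12w-res (log2 fold change -0.41, adjusted p = 0.00850 in limma).

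Bcl2l1, the gene for BCL-XL, was at 140, 100 and 77.4 FPM in 6w+dox, at 103, 126, 104 and 103 FPM in 12w+dox and at 125, 124, 123, 141 and 115 FPM in 12w-res. The 12w-res mice lay towards the upper end but overlapped with both dox groups. The log2 fold change was 0.21 (95% interval -0.10 to 0.51) against 12w+dox and 0.29 (-0.05 to 0.62) against 6w+dox, and neither passed the test. Scaled to total reads, which moved the median of all genes as given below, Bcl2l1 passed as lower in 12w-res than in 12w+dox (-0.45, adjusted p = 0.00083 in limma) and as higher in 12w+dox than in 6w+dox (0.404, adjusted p = 0.0127). The comparison of 12w-res with 6w+dox passed without 6w+dox replicate 1 (log2 fold change 0.51, adjusted p = 0.0113 in limma).

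Bcl2 was at 10.9, 12.2 and 12.54 FPM in 6w+dox, at 11.2, 10.2, 8.22 and 12.54 FPM in 12w+dox and at 12.9, 11.3, 14.8, 11.4 and 15.4 FPM in 12w-res. The groups overlapped throughout. The log2 fold change between 12w-res and 12w+dox was 0.31 (95% interval -0.01 to 0.63, adjusted p = 0.119 in limma), and passed with the length trend described below removed (0.43, adjusted p = 0.0159).

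Of the effectors, Bax is a direct p53 target and forms pores in the outer mitochondrial membrane. It was at 72.5, 64.4 and 37.9 FPM in 6w+dox, at 32.2, 42.0, 54.7 and 34.4 FPM in 12w+dox and at 38.5, 32.7, 27.3, 27.6 and 25.3 FPM in 12w-res. A single 12w-res mouse overlapped with the lowest 6w+dox mouse. Bax fell by 0.90 on the log2 scale from 6w+dox to 12w-res (SE 0.22, adjusted p = 0.00597 in limma), a 1.86-fold difference, and passed in all 8 fits that left out 1 mouse (adjusted p 0.000506 to 0.0359). Against 12w+dox, Bax had a log2 fold change of -0.41 (SE 0.20, adjusted p = 0.118). In 12w+dox against 6w+dox it was -0.48 (adjusted p = 0.139), which passed without 6w+dox replicate 3 (-0.77, adjusted p = 0.0119).

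The length of the transcript moved with these values. Over all long-term genes with a known length (92.4%), the 676 genes with transcripts of up to 1000 bases had a median log2 fold change of -0.57 in 12w+dox against 6w+dox and 0.31 in 12w-res against 12w+dox, while the 1979 genes with over 6000 bases had medians of 0.20 and -0.13. The Bax transcript has 867 bases. With the median of each length bin removed from every library, an alternative chosen after seeing the data, Bax stood at 0.09 in 12w+dox against 6w+dox and passed the test in 12w-res against both 12w+dox (log2 fold change -0.73, adjusted p = 0.000152 in limma) and 6w+dox (-0.64, adjusted p = 0.000912). The part that transcript length or RNA quality plays in these values was not tested.

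**Figure D2:**
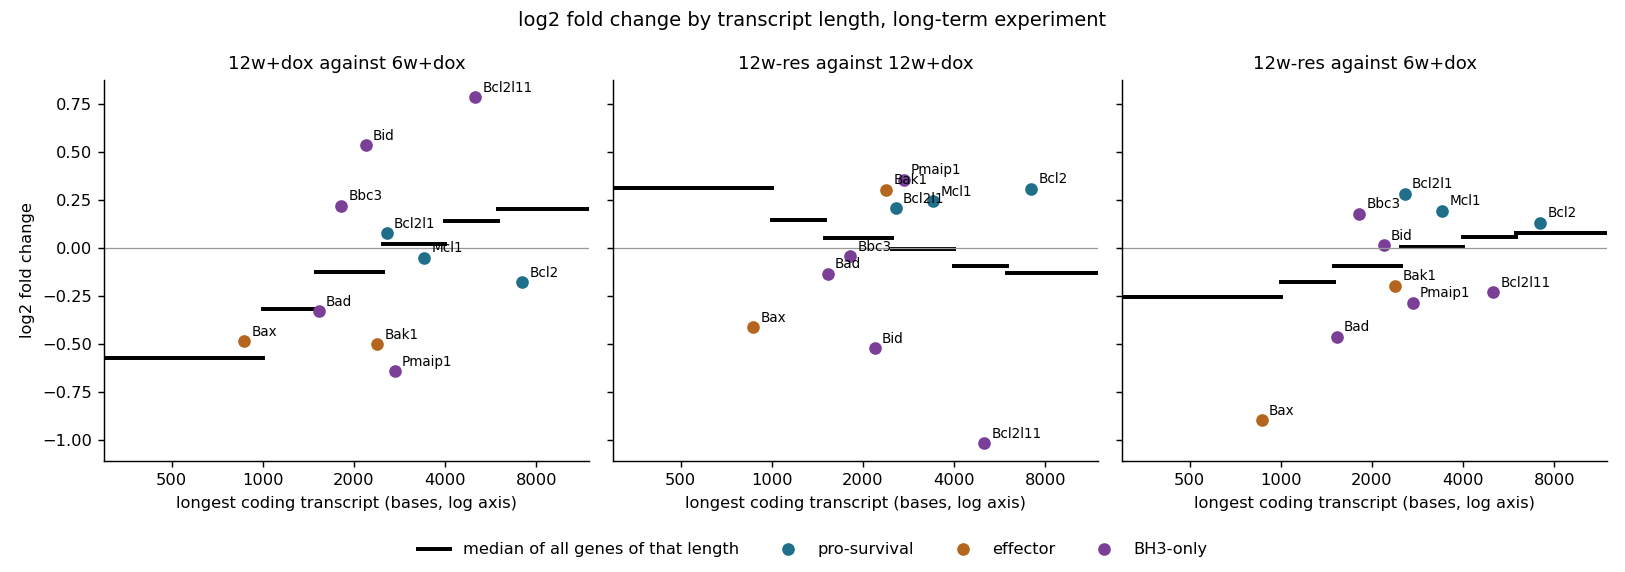
log2 fold change (vertical axis) against the length of the longest coding transcript in bases (horizontal log axis) for the 3 long-term comparisons, with bars for the median of all genes in each length bin and points for the 10 genes. Bax lies near the bar of the shortest bin (-0.57) in 12w+dox against 6w+dox and below it (0.31) in 12w-res against 12w+dox.

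Bak1, which encodes the other effector, was at 9.55, 11.7 and 10.7 FPM in 6w+dox, at 8.65, 5.95, 7.73 and 7.34 FPM in 12w+dox and at 10.2, 9.88, 6.87, 10.6 and 8.95 FPM in 12w-res. All 12w+dox mice lay below all 6w+dox mice, which held for 3 members in either direction (Bak1, Bcl2l11 and Bid) and for 25.2% of all genes. For Bak1 the difference between 12w+dox and 6w+dox was -0.50 on the log2 scale (SE 0.18, adjusted p = 0.0635 in limma), which passed with DESeq2 on the recovered reads (-0.52, adjusted p = 0.0314). In 12w-res against 12w+dox it was 0.30 (SE 0.16, adjusted p = 0.150).

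The BH3-only gene Bcl2l11 had the largest difference of the 10 in 12w+dox against 6w+dox and in 12w-res against 12w+dox, but not in 12w-res against 6w+dox, where Bax did. BIM, its product, binds all pro-survival members and can activate BAX and BAK directly. Bcl2l11 was at 22.8, 45.4 and 40.8 FPM in 6w+dox, at 53.5, 61.5, 49.3 and 82.7 FPM in 12w+dox and at 29.5, 26.6, 34.0, 27.3 and 31.4 FPM in 12w-res. Every 12w+dox mouse lay above every mouse of the other long-term groups, and the 12w-res mice fell within the range of 6w+dox. Bcl2l11 fell by 1.02 on the log2 scale between 12w+dox and 12w-res (SE 0.19, adjusted p = 0.000963 in limma), a 2.03-fold difference, and the exact 2-sided permutation test gave p = 0.0159, the smallest that 5 against 4 allows.

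The fall of Bcl2l11 passed in all 9 fits without 1 mouse (log2 fold change -1.12 to -0.87, adjusted p 0.00143 to 0.00409 in limma) and in all 12 other alternatives (-1.67 to -0.93, highest adjusted p 0.00527). Its transcript has 5036 bases, and genes of over 4000 and up to 6000 bases had a median log2 fold change of -0.09 in this comparison. The sexes did not separate it: the 12w+dox values were 53.5 and 61.5 FPM in females and 49.3 and 82.7 FPM in males, and all 12w-res values were lower in either sex.

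Bcl2l11 rose by 0.79 between 6w+dox and 12w+dox (SE 0.22, adjusted p = 0.0201 in limma), or 1.73-fold. This call was lost without 6w+dox replicate 1, the lowest of its group (log2 fold change 0.49, adjusted p = 0.0877), without 12w+dox replicate 4, the highest (0.64, 0.0562), and when only the 6w+dox and 12w+dox mice were fitted (0.0714). In 12w-res against 6w+dox it stood at -0.23 (95% interval -0.67 to 0.21) and did not pass, but without 6w+dox replicate 1 it was -0.53 with adjusted p = 0.0374.

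Bid, whose product links death receptors to mitochondria once caspase 8 has cut it, was at 4.19, 3.34 and 4.22 FPM in 6w+dox, at 4.26, 5.45, 7.61 and 6.73 FPM in 12w+dox and at 4.37, 3.17, 3.91, 4.37 and 4.03 FPM in 12w-res. The 2 highest values were those of the 12w+dox males. Bid fell by 0.52 on the log2 scale between 12w+dox and 12w-res (SE 0.18, adjusted p = 0.0376 in limma). The call held in 2 of 9 fits without 1 mouse, those without 12w+dox replicate 1 and without 12w-res replicate 1 (adjusted p 0.0116 to 0.119 over the 9). In 12w+dox against 6w+dox, Bid stood at 0.54 (adjusted p = 0.0785), which passed with DESeq2 on the recovered reads (0.62, 0.0434), with scaling to total reads (0.84, 0.0213), with the length trend removed (0.66, 0.0322) and without 12w+dox replicate 1 (0.68, 0.0309).

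Bad encodes a BH3-only protein that survival signalling keeps inactive by phosphorylation. It was at 30.3, 26.5 and 22.1 FPM in 6w+dox, at 16.6, 22.9, 25.5 and 18.9 FPM in 12w+dox and at 18.6, 19.0, 19.3, 21.0 and 16.5 FPM in 12w-res. All 12w-res mice lay below all 6w+dox mice, which held for 1 member and for 32.7% of all genes in either direction. Bad fell by 0.46 on the log2 scale from 6w+dox to 12w-res (SE 0.15, adjusted p = 0.0323 in limma). The call was lost in 5 of 8 fits, those without 12w-res replicate 2, 3 or 5 or without 6w+dox replicate 1 or 2 (adjusted p 0.0140 to 0.133 over the 8). Its transcript has 1533 bases, and with the length trend removed the value was -0.39 (adjusted p = 0.0249).

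The p53 targets Bbc3 and Pmaip1 did not pass in any long-term comparison. Bbc3 was at 8.62, 8.15 and 6.21 FPM in 6w+dox, at 8.34, 9.997, 9.98 and 7.65 FPM in 12w+dox and at 13.7, 9.19, 6.55, 9.27 and 6.30 FPM in 12w-res. Its 12w-res mice spanned both dox groups, with a log2 fold change of -0.04 (95% interval -0.49 to 0.40) against 12w+dox. Pmaip1 was at 1.40, 1.38 and 0.621 FPM in 6w+dox, at 0.663, 0.321, 0.462 and 0.670 FPM in 12w+dox and at 0.728, 1.11, 1.37, 0.649 and 0.387 FPM in 12w-res, which is 7 to 31 reads a library. Its log2 fold change of 0.36 in 12w-res against 12w+dox had a 95% interval of -0.19 to 0.90, which does not exclude a rise of up to 0.90 in log2 terms. Without 6w+dox replicate 3, Pmaip1 passed in 12w+dox against 6w+dox (-0.89, adjusted p = 0.0374 in limma), and Bbc3 passed in 12w-res against 12w+dox when scaled to total reads (-0.67, adjusted p = 0.0111).

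**Figure D3:**
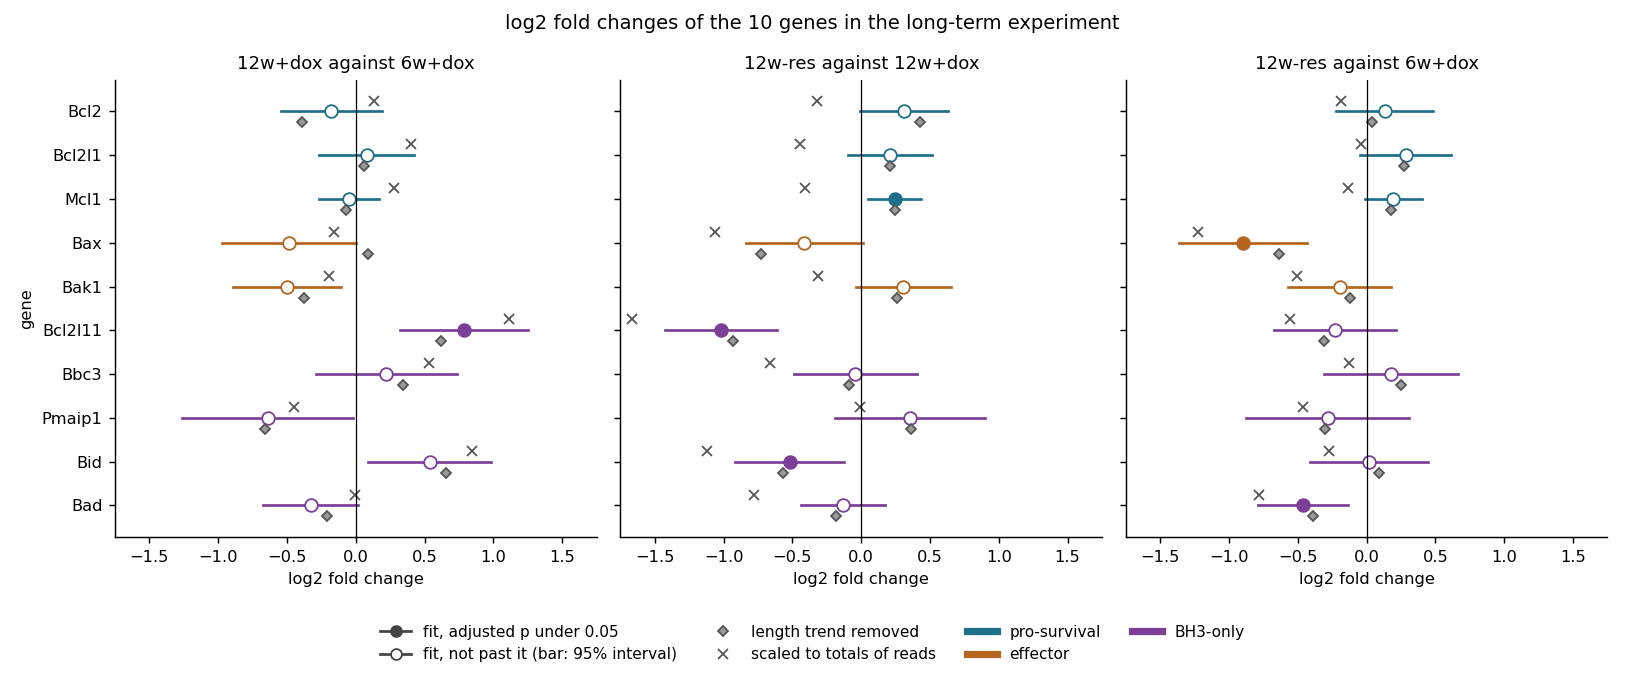
log2 fold change (horizontal axis) of each of the 10 genes (vertical axis) in the 3 long-term comparisons, with the 95% interval of the limma fit as a bar, filled circles for an adjusted p under 0.05, diamonds for the value with the length trend removed and crosses for scaling to total reads. Bcl2l11 stands at -1.02 in 12w-res against 12w+dox, and all 10 crosses in that panel lie to the left of 0.

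The smaller differences moved with the scaling of libraries, in which Pomc alone took 39.1% to 43.2% of reads in 12w-res and 12.9% to 23.0% in 12w+dox. Scaled to total reads, all genes had a median of -0.61 instead of -0.00 in 12w-res against 12w+dox, 0.29 in 12w+dox against 6w+dox and -0.33 in 12w-res against 6w+dox. In these comparisons 733 genes passed as higher and 9239 as lower (2975 and 2807 with the deposited scaling), 3707 and 766 (1600 and 1833), and 1067 and 5064 (2606 and 2566). Relative to the first of these medians, Bcl2l11 stood at -1.06 and Mcl1 at 0.19. Ratios between members within a mouse do not depend on the scaling and are given as values without a test. The Bcl2l11 to Mcl1 ratio was 0.191, 0.328 and 0.329 in 6w+dox, 0.419, 0.482, 0.430 and 0.683 in 12w+dox and 0.230, 0.176, 0.226, 0.179 and 0.216 in 12w-res. The summed FPM of the 5 BH3-only genes over that of the 3 pro-survival genes was 0.249 to 0.346 in 6w+dox, 0.344 to 0.494 in 12w+dox and 0.205 to 0.251 in 12w-res. In each of these ratios every 12w-res mouse lay below every 12w+dox mouse. Bcl2l11 made up 53.1% to 70.9% of the BH3-only sum in 12w+dox and 43.6% to 53.5% in 12w-res. These sums are of FPM not divided by transcript length, so the 5036 bases of Bcl2l11 weigh more than the 1533 of Bad. Per kilobase, Bad had the higher mean, at 13.7 against 12.3 FPM per kb in 12w+dox and 12.3 against 5.91 in 12w-res. Without Bcl2l11 the summed ratio was 0.155 to 0.165 in 6w+dox, 0.124 to 0.192 in 12w+dox and 0.0986 to 0.140 in 12w-res, and the last 2 groups overlapped. The Bax to Bcl2 ratio, of a short and a long transcript, was 3.02 to 6.62 in 6w+dox, 2.75 to 6.66 in 12w+dox and 1.65 to 2.97 in 12w-res, with an overlap between the last 2 groups.

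When the 5 12w-res mice were set against all 7 long-term dox mice, the exact 2-sided permutation test gave unadjusted p = 0.00505 for Mcl1 (146 against 125 FPM), 0.0177 for Bax (30.3 against 48.3 FPM) and 0.0227 for Bcl2l11 (29.8 against 50.9 FPM). The other 7 members had p of 0.0732 or more in this test, and the mice overlapped for all 10. No share of all genes is given for this pooled test, so its p-values are not read as a difference from all genes. In limma, 5585 of 15315 genes had an unadjusted p under 0.05 in 12w+dox against 6w+dox. There were 7249 in 12w-res against 12w+dox and 6740 in 12w-res against 6w+dox. The pool also joins 6w+dox mice, all female, with 12w+dox mice, between which Bcl2l11 differed.

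Cell type markers moved in the same comparisons. Of 10 proliferation genes, all 10 were lower in 12w-res than in 12w+dox, and their summed level was 479 to 649 FPM in 12w+dox and 60.004 to 68.0 FPM in 12w-res. Of 9 macrophage markers, 7 were higher in 12w-res (summed level 253 to 508 FPM against 154 to 209), as were all 5 endothelial markers (123 to 140 FPM against 33.6 to 70.3) and all 5 fibroblast markers (378 to 910 FPM against 55.2 to 236). The 7 markers of other hormone-producing cells summed to 57282 to 92575 FPM in 6w+dox, 1175 to 12568 in 12w+dox and 16659 to 32306 in 12w-res. In 12w-res against 12w+dox, 2 of these 7 passed as higher and 0 as lower, with 5 log2 fold changes above 0 and 2 below. Of 6 melanotroph markers, 1 passed as higher and 2 as lower in that comparison. Of 7 lymphocyte markers, 4 are listed in the table, Cd3e and Ms4a1 not among them. What these cells contribute to the levels of the 10 genes was not tested.

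The other genes of the pathway were read from 4 lists of 54 genes, of which 52 were listed in the long-term table. In 12w+dox against 6w+dox 7 of the 52 were higher and 4 lower, beside 10.4% and 12% of all genes. In 12w-res against 12w+dox 7 were higher and 19 lower, beside 19.4% and 18.3% of all genes. In 12w-res against 6w+dox 5 were higher and 11 lower, beside 17% and 16.8% of all genes. Their medians on the log2 scale were 0.07, -0.19 and -0.17, beside -0.01, -0.00 and -0.02 over all genes.

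In the wider BCL2 family, the BH3-only gene Bmf was at 4.402 ± 1.003 FPM (n = 3) in 6w+dox. It was higher in 12w+dox at 15.4 ± 2.87 (n = 4, log2 fold change 1.71, SE 0.24, adjusted p = 0.000519 in limma). In 12w-res Bmf was at 9.25 ± 2.41 (n = 5), lower than in 12w+dox (-0.73, adjusted p = 0.0133 in limma). Like Bcl2l11 it was highest at 12w+dox. Unlike Bcl2l11, Bmf in all 12w-res mice (6.47 to 11.4 FPM) lay above all 6w+dox mice (3.32 to 5.30 FPM). Such a separation held for 32.7% of all genes in either direction. Bok, a BAX-like effector, fell from 19.4 ± 6.60 FPM in 12w+dox to 5.73 ± 1.63 in 12w-res (-1.66, SE 0.26, adjusted p = 0.000265) and was also lower than in 6w+dox (-1.20). Bik, a BH3-only gene of the endoplasmic reticulum, was at 10.3 ± 2.64 FPM in 6w+dox, 4.85 ± 1.06 in 12w+dox and 2.73 ± 0.951 in 12w-res. It was lower in 12w+dox than in 6w+dox (-1.01, adjusted p = 0.0171 in limma) and lower in 12w-res than in 12w+dox (-0.76, adjusted p = 0.0209 in limma). The first of these calls was lost when scaled to total reads or with the length trend removed.

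Bnip3 and Bnip3l, hypoxia-responsive mitophagy receptors with a BH3-like stretch, rose between 6w+dox and 12w+dox (log2 fold change 0.96 and 0.76, adjusted p = 0.0382 and 0.0212 in limma), and these calls were lost with sex as a covariate and with only those groups fitted. Bcl2l14 fell in that comparison (-1.12, adjusted p = 0.0196) and was lower in 12w-res than in 6w+dox (-0.81, adjusted p = 0.0450), the latter a call that DESeq2 and edgeR did not make. Bcl2a1b, a pro-survival gene of leukocytes, rose from 0.883 ± 0.598 FPM in 12w+dox to 2.03 ± 0.574 in 12w-res (0.92, adjusted p = 0.0203), a call lost when scaled to total reads or with the length trend removed. Macrophage markers, given above, were also higher, and their part in this was not tested.

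**Figure D4:**
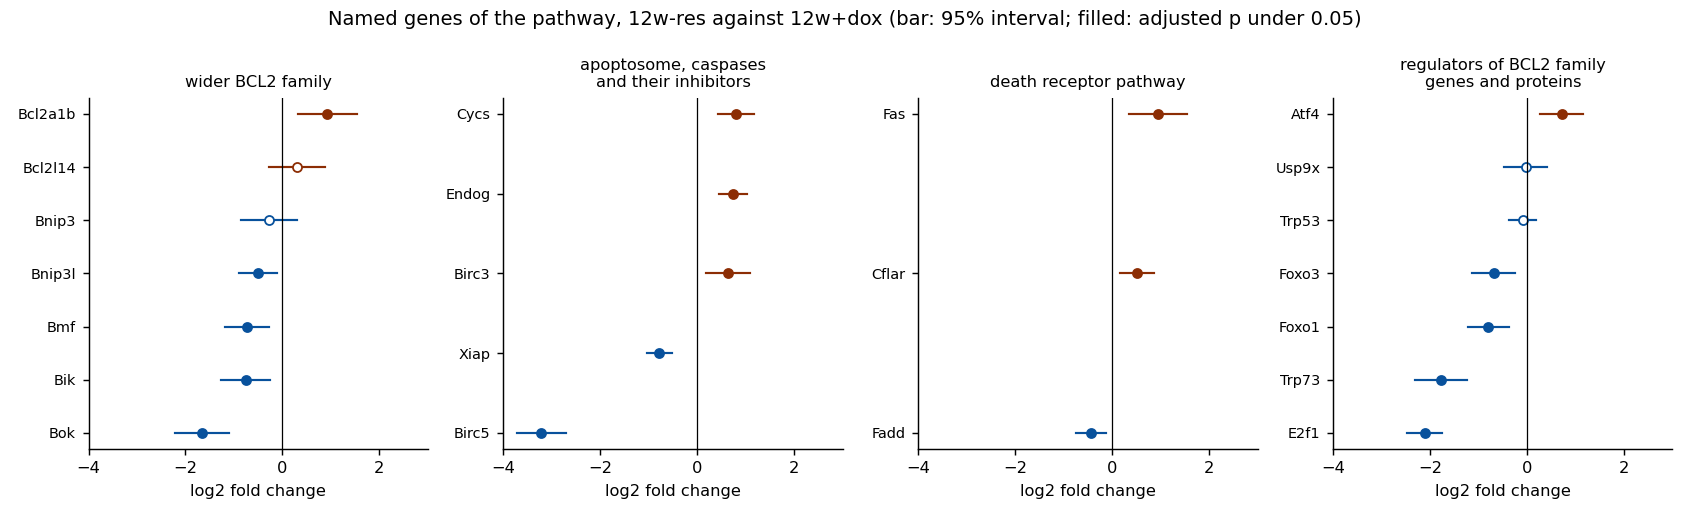
log2 fold change in 12w-res against 12w+dox (horizontal axis) of the genes named here from 4 lists of the pathway, with 95% intervals of the limma fit as bars and filled points for an adjusted p under 0.05. Birc5 (-3.22), E2f1 (-2.11), Trp73 (-1.77) and Bok (-1.66) stand farthest to the left.

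Among caspases, the apoptosome and their inhibitors, 9 of 19 genes fell and 3 rose between 12w+dox and 12w-res. Birc5, which encodes survivin and is expressed in dividing cells, fell from 13.3 ± 3.41 FPM to 0.963 ± 0.232 (log2 fold change -3.22, SE 0.24, adjusted p = 2.07e-07 in limma). Birc5 was also lower in 12w-res than in 6w+dox (-3.42).

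Cycs, the cytochrome c gene, fell from 71.5 ± 22.5 FPM in 6w+dox to 34.2 ± 4.34 in 12w+dox (log2 fold change -1.005, adjusted p = 0.00328 in limma) and was at 59.9 ± 7.16 in 12w-res (0.80, adjusted p = 0.00227). Endog, a mitochondrial nuclease, rose to 16.7 ± 2.39 FPM in 12w-res from 9.80 ± 0.809 in 12w+dox (0.73, adjusted p = 0.000872), and Birc3, an inhibitor of apoptosis, had a log2 fold change of 0.63 (adjusted p = 0.0280). Xiap, which encodes a direct caspase inhibitor, rose by 0.46 on the log2 scale between 6w+dox and 12w+dox (adjusted p = 0.0294) and fell from 88.8 ± 8.98 FPM in 12w+dox to 51.3 ± 5.73 in 12w-res (-0.79, SE 0.12, adjusted p = 0.000207), with no overlap between these groups. The rises of Cycs, Endog and Birc3 in 12w-res did not pass when libraries were scaled to total reads, and that of Xiap was lost with the length trend removed, with sex as a covariate and with only those groups fitted.

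Of 8 death receptor genes, Fas and Cflar rose between 12w+dox and 12w-res (log2 fold change 0.94 and 0.51, adjusted p = 0.0166 and 0.0257 in limma) and Fadd fell (-0.43, adjusted p = 0.0294). Cflar, which encodes the caspase 8 inhibitor FLIP, was also higher than in 6w+dox (0.80, adjusted p = 0.00372). None of the 8 passed between 6w+dox and 12w+dox by limma, where 1 had an unadjusted p under 0.05, beside 5585 of all 15315 genes. The rises of Fas and Cflar did not pass with scaling to total reads.

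Among regulators of the family, E2f1 fell from 40.8 ± 3.01 FPM in 12w+dox to 9.28 ± 2.49 in 12w-res (log2 fold change -2.11, SE 0.17, adjusted p = 6.73e-07 in limma) and Trp73, the p73 gene, from 3.65 ± 0.690 to 0.736 ± 0.364 (-1.77, adjusted p = 0.000104). Foxo3 and Foxo1 encode factors that are known to activate Bcl2l11. Foxo3 rose from 5.16 ± 1.79 FPM in 6w+dox to 18.3 ± 3.88 in 12w+dox (1.77, SE 0.24, adjusted p = 0.000432 in limma). In 12w-res Foxo3 was at 11.1 ± 1.87, lower than in 12w+dox (-0.69, adjusted p = 0.0180 in limma). All 12w-res mice (8.89 to 13.1 FPM) lay above all 6w+dox mice (3.20 to 6.71 FPM) for Foxo3, which was not so for Bcl2l11. Such a separation held for 32.7% of all genes in either direction. Foxo1 was lower by 0.80 in 12w-res than in 12w+dox (adjusted p = 0.00646 in limma). RNA levels of these factors do not show their activity, which phosphorylation controls.

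Trp53 fell from 68.8 ± 7.47 FPM in 6w+dox to 43.0 ± 2.74 in 12w+dox (log2 fold change -0.67, adjusted p = 0.00762 in limma) and was at 40.8 ± 7.94 in 12w-res. Usp9x, a deubiquitinase known to stabilise MCL1, rose from 75.4 ± 27.0 FPM in 6w+dox to 158 ± 43.6 in 12w+dox (1.09, adjusted p = 0.00578 in limma). In 12w-res Usp9x was at 150 ± 8.31. Atf4, a stress response factor, rose by 0.71 between 12w+dox and 12w-res (adjusted p = 0.0141), a rise that did not pass with scaling to total reads. Trp53 between 6w+dox and 12w+dox did not pass with that scaling either.

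Over the 12 long-term mice, the genes with the pattern closest to Bcl2l11, by the root mean square difference of centred log2(FPM + 0.5), were Csmd2 (0.155), Cecr2 (0.178) and Fgd1 (0.183), beside an SD of 0.553 for Bcl2l11 itself. Closest to Bid were Rnf4 (0.147), Wdr91 (0.150) and Zfp709 (0.152), against an SD of 0.337. Closest to Bax were Cuedc2 (0.0910), Mrpl14 (0.0964) and Nudt16l1 (0.113), against an SD of 0.485. These are descriptions of likeness over 12 samples out of 15314 genes searched.

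In the short-term experiment 0 of 9 members passed the limma test in any comparison, against 0.1% of 13958 genes for 1d-dox, 0.358% for 3d-dox and 0.509% for 5d-dox against 16w+dox, and 0.0143% for 5d-dox against 1d-dox. At an unadjusted p under 0.05 there were 0, 0, 1 and 0 members in these comparisons, beside 1823, 2323, 1889 and 883 of all 13958 genes. No member passed with DESeq2 or edgeR on the recovered reads either. With 3 against 3 mice the exact permutation test cannot go below p = 0.1. The median log2 fold change of the 9 was 0.04, -0.07, 0.04 and -0.06, and the 95% intervals of all 9 lay within a 2-fold change either way, apart from Bbc3 in 5d-dox against 16w+dox.

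**Figure D5:**
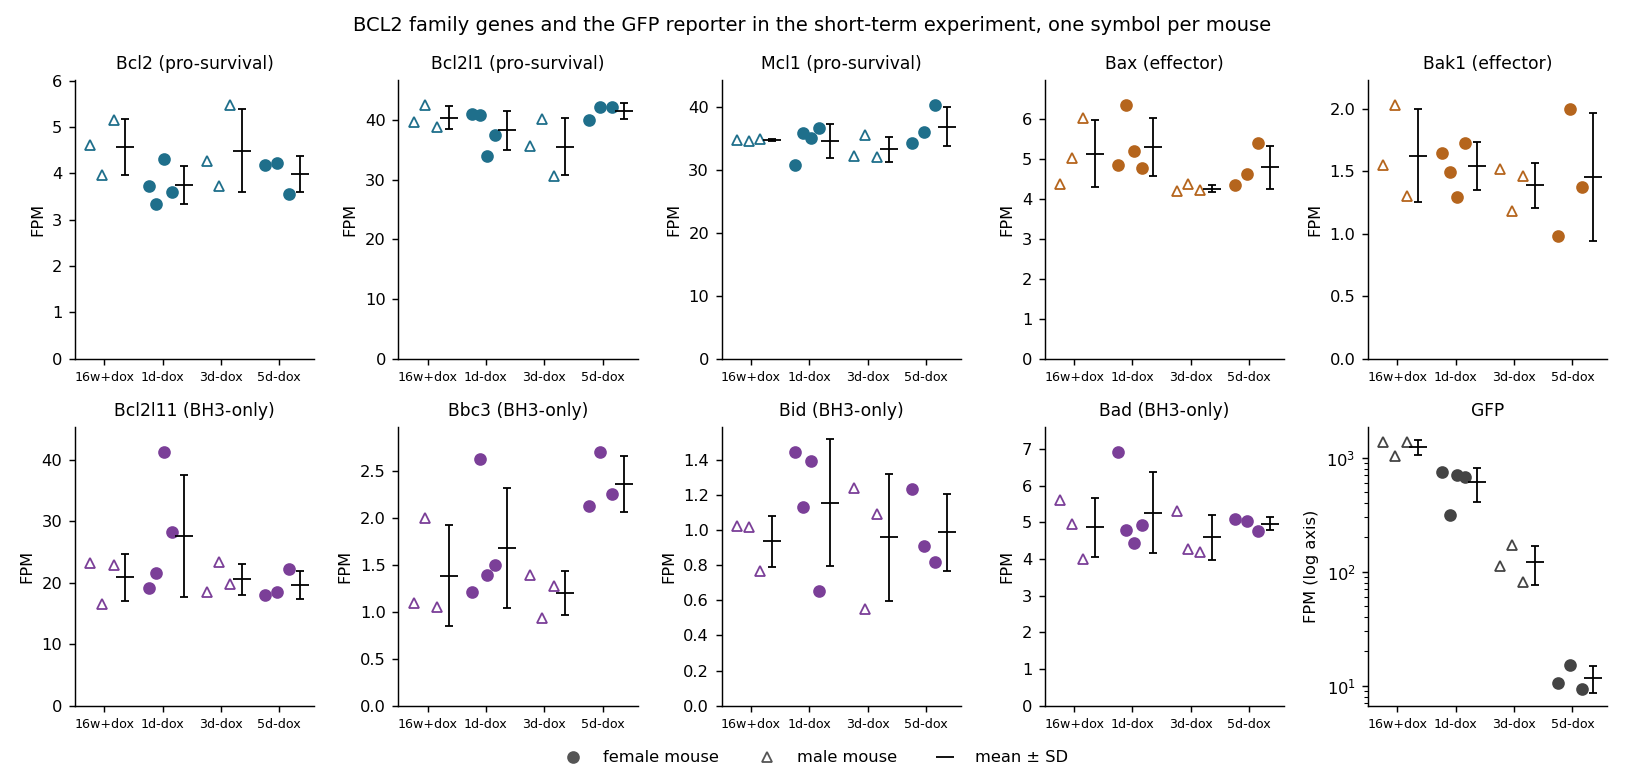
Level in FPM (vertical axes, from 0, with a log axis for GFP) of 9 BCL2 family genes and the GFP reporter in every mouse of the 4 short-term groups (horizontal axis), with females as filled circles, males as open triangles and the mean ± SD beside them. GFP falls to 9.34 to 15.2 FPM in 5d-dox, while the mice of each group overlap with those of 16w+dox for the 9 genes, apart from Bbc3 in 5d-dox and Bax in 3d-dox.

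The PUMA gene Bbc3 was at 1.098, 2.0045 and 1.05 FPM in 16w+dox, at 1.21, 2.63, 1.396 and 1.497 FPM in 1d-dox, at 1.39, 0.938 and 1.28 FPM in 3d-dox and at 2.13, 2.70 and 2.25 FPM in 5d-dox. The 5d-dox mice, all female, lay above the 16w+dox mice, all male. Groups did not overlap for this 1 member and for 19.3% of all genes in either direction. The log2 fold change was 0.63 (95% interval 0.14 to 1.13, unadjusted p = 0.0159 and adjusted p = 0.253 in limma). Against the 1d-dox mice, also female, the groups overlapped and the log2 fold change was 0.43 (-0.04 to 0.89, adjusted p = 0.766).

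Bax was at 4.37, 5.02 and 6.02 FPM in 16w+dox, at 4.85, 6.35, 5.21 and 4.77 FPM in 1d-dox, at 4.19, 4.37 and 4.22 FPM in 3d-dox and at 4.35, 4.62 and 5.40 FPM in 5d-dox. The 3d-dox mice lay below the 16w+dox mice, also male, by a margin of less than 0.01 FPM, and 21.6% of all genes did not overlap between these groups in either direction. In 1d-dox against 16w+dox and in 5d-dox against 1d-dox, 0 members did not overlap, beside 11.2% and 7.8% of all genes. Bax stood at -0.23 on the log2 scale in 3d-dox (95% interval -0.53 to 0.06, adjusted p = 0.405 in limma).

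Bcl2l11, which differed most in the long-term experiment, was at 23.3, 16.5 and 22.9 FPM in 16w+dox, at 19.1, 21.5, 41.3 and 28.3 FPM in 1d-dox, at 18.5, 23.4 and 19.8 FPM in 3d-dox and at 18.1, 18.5 and 22.2 FPM in 5d-dox. The groups overlapped, and 1d-dox replicate 3 was the highest of the 13. Against 16w+dox it stood at 0.35 (95% interval -0.09 to 0.78) in 1d-dox, -0.01 (-0.48 to 0.46) in 3d-dox and -0.08 (-0.55 to 0.39) in 5d-dox. The log2 fold change of -1.02 in 12w-res lies outside these 3 intervals, but it was taken against 12w+dox, not against the state before dox removal. Against 6w+dox, which is that state, 12w-res stood at -0.23 (-0.67 to 0.21). That value lies inside the intervals of 3d-dox and 5d-dox. The experiments also differ in library preparation and time on dox.

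Mcl1 stayed between 30.7 and 40.3 FPM and Bcl2l1 between 30.7 and 42.5 FPM in all 13 mice. Bcl2 ranged from 3.33 to 5.48 FPM, Bad from 4.01 to 6.91 FPM, Bak1 from 0.981 to 2.03 FPM and Bid from 0.551 to 1.44 FPM, and each overlapped between all 4 groups. Per kilobase of transcript, Bcl2l1 led in 16w+dox at 15.7 ± 0.751 FPM per kb, ahead of Mcl1 at 10.2 ± 0.0404 and Bax at 5.93 ± 0.961, which did not overlap. The Bcl2l11 to Mcl1 ratio had means of 0.601 in 16w+dox, 0.793 in 1d-dox, 0.616 in 3d-dox and 0.530 in 5d-dox.

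Of the 54 other pathway genes, 46 were listed in the short-term table and 0 passed the limma test in any of the 4 comparisons. At an unadjusted p under 0.05 there were 7, 7, 4 and 2 of them, beside 1823, 2323, 1889 and 883 of all 13958 genes. The 10 proliferation genes did not pass either, with a summed level of 218 to 324 FPM in 16w+dox and 267 to 319 FPM in 5d-dox. The endothelial marker Cdh5 was lower in 1d-dox and 5d-dox than in 16w+dox (log2 fold change -1.10 and -1.22, adjusted p = 0.0420 and 0.0135), in which the sexes also differ.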

How the data were processed

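Pituitaries of 25 shRb mice were sequenced as RNA-seq. Per the labels, long-term libraries were made by poly(A) selection and short-term ones by rRNA depletion. The authors mapped reads to mm10 with STAR, counted them on RefSeq genes and deposited a signal (FPM) scaled by DESeq2 size factors. The counting tool and its use of strand are not given in the sources used here, so that reads of Bcl2, Bak1 and Bad cannot be told from those of genes overlapping them on the other strand, and Bax shares 140 exon bases with Gm45808 on the same strand. Lines of the short-term table that name no gene (4) were left out. All values (100%) were whole multiples of 1 read within 0.1 read, and whole reads were recovered.

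Groups and sexes came from the sample labels. Genes were tested if over 50% of a group's mice had 10 reads or more. Each experiment was fitted once over all its groups with limma 3.58.1 under R 4.3.3, taking log2 of FPM plus 0.5 and a mean-variance trend. P-values were adjusted over all genes by Benjamini-Hochberg, and the procedure was tested on simulated data. Fold changes on this scale understate those of low genes. Single genes were also tested by exact permutation. Nothing says that samples shared a litter or batch, and p-values measure the spread between mice. Replicate pairs differed beyond sampling noise. Named were all members, and from each other pathway list up to 3 genes per direction with the largest change among those that passed in a comparison; likeness was sought for the 3 members with the largest change in 12w-res against 12w+dox. Some genes that this rule would name are not reported here, though list counts include them. The members and lists were chosen with earlier results of these data known.

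Alternatives were pseudocounts of 0.1 and 1, no filter, 10 reads in every sample, TMM scaling, totals of reads, DESeq2 1.42.0 and edgeR 4.0.16 on recovered reads, only the groups compared, a replicate block, sex as a covariate (long-term), each mouse left out and, added after seeing the data, removal of the length trend. Symbols of 14634 of 15315 and 13474 of 14007 genes matched RefSeq (GRCm38.p6). Lengths came from the longest coding transcript in the GENCODE annotation given. Promoter windows came from RefSeq.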

Additional observations from a re-analysis of the deposited data

Results flagged for a closer look

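Dixon's test was run on 29 sets of values, each of 1 member in 1 group of 4 or 5 mice. In 2 of them a mouse stood apart from the others, while chance flags about 1 set in 20. The sets share the same mice and are not independent. Bcl2l1 was at 125.9 FPM in 12w+dox replicate 2, beside 102.5 to 103.9 FPM in the other mice of that group. Mcl1 was at 128.2 FPM in 12w-res replicate 1, beside 145.5 to 152.4 FPM in the other 4.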

How the results depend on the processing

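Each member in each comparison was counted anew under every other setting. Of these counts, 704 kept their direction and their side of the threshold, 10 passed newly, 7 no longer passed and 32 changed sign. With 1 mouse left out these numbers were 412, 5, 22 and 35. The cause was not tested, other than for fits with fewer mice. In 12w+dox against 6w+dox, 1 member passed, and 3 did when scaled to total reads or with DESeq2, 2 with the length trend removed (chosen after seeing the data) and 0 with only those groups fitted. Over all genes, 1600 were higher and 1833 lower there. With total reads these were 3707 and 766, and with DESeq2 1935 and 2258. They were 1521 and 1733 with the length trend removed, and 882 and 939 of 15135 with only those groups fitted. In 12w-res against 12w+dox, 3 members passed, and 5 did with the length trend removed. Over all genes, 2975 were higher and 2807 lower there, and 3217 and 3058 with that trend removed. Scaled to total reads, 7 members passed in this comparison, all as lower and Mcl1 among them, beside 9239 of 15315 genes that passed as lower. With 1 mouse left out the member counts of these comparisons ran from 0 to 3 and from 1 to 3, and that of 12w-res against 6w+dox from 1 to 3.

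Same-numbered mice correlated at -0.165 to 0.237 (10 pairs, 1 over 0.1) and -0.208 to 0.168 (18 pairs, 3 over 0.1), and 1 of 12 and 3 of 13 mice correlated best with their own number, so the numbers do not pair the mice. With a replicate block, 0, 1 and 0 members passed in the 3 long-term comparisons. Over all 15315 genes, 961 were then higher and 995 lower, 2330 and 2293, and 1694 and 1718. With this block Bbc3 in 12w-res against 12w+dox stood at 0.064 and Bid in 12w-res against 6w+dox at -0.044.

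Scaling to total reads turned Bcl2 to 0.13 and Mcl1 to 0.28 in 12w+dox against 6w+dox. In 12w-res against 12w+dox it turned Bcl2 to -0.32, Bcl2l1 to -0.45, Mcl1 to -0.41, Bak1 to -0.32 and Pmaip1 to -0.011, and in 12w-res against 6w+dox Bcl2 to -0.19, Bcl2l1 to -0.045, Mcl1 to -0.14, Bbc3 to -0.13 and Bid to -0.28. In 3d-dox it turned Bcl2 to 0.11, Mcl1 to 0.086, Bcl2l11 to 0.14, Bid to 0.0998 and Bad to 0.068, and in 5d-dox against 16w+dox Bcl2l1 to -0.038, Bid to -0.0044 and Bad to -0.035. Sex as a covariate turned Mcl1 to 0.0040 in 12w+dox and Bid to -0.053 in 12w-res, both against 6w+dox. Removing the length trend turned Bax to 0.088 in 12w+dox against 6w+dox. Bbc3 in 12w-res against 12w+dox stood at 0.00036 with DESeq2 and 0.013 with edgeR. Bid in 3d-dox stood at 0.0038 with a pseudocount of 1, 0.0013 with TMM, 0.036 with DESeq2, 0.043 with edgeR and 0.020 with the length trend removed.

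With 1 mouse left out, values that changed sign ran as follows. In 12w+dox against 6w+dox, Bcl2l1 ran from -0.13 to 0.30 and Mcl1 from -0.094 to 0.013. Bbc3 ran from -0.20 to 0.064 in 12w-res against 12w+dox, and Bid from -0.082 to 0.085 in 12w-res against 6w+dox. In 1d-dox, Mcl1 ran from -0.039 to 0.045, Bax from -0.059 to 0.15, Bak1 from -0.16 to 0.084 and Bad from -0.028 to 0.20. In 3d-dox, Bcl2 ran from -0.17 to 0.078, Bcl2l11 from -0.17 to 0.071, Bbc3 from -0.24 to 0.10, Bid from -0.14 to 0.22 and Bad from -0.19 to 0.032. In 5d-dox against 16w+dox, Bax ran from -0.19 to 0.024, Bak1 from -0.34 to 0.041, Bcl2l11 from -0.24 to 0.0040, Bid from -0.070 to 0.13 and Bad from -0.081 to 0.14. Against 1d-dox, Bak1 in 5d-dox ran from -0.29 to 0.090 and Bad from -0.13 to 0.066.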
